A study of Oryza sativa Japonica Group with 3 samples.

Results

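The first day of imbibition was examined by setting the library of seeds soaked for 24 h against the library of dry seeds (0 h), 2 of the 3 libraries of the series. The seeds were whole grains of Jiucaiqing, a landrace of japonica rice, and the soaked seeds had lain in distilled water at 30 °C. Each library was made from 3 biological replicates combined before sequencing, so each time is 1 library and no spread between replicates can be given. The question was how the seed's messenger RNA differs once water has been taken up but before the germinated stage, which the third library represents at 48 h. No difference below was tested, and any effect of how the libraries were made cannot be told apart from that of the hours in water.

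A dry cereal seed holds messenger RNA left from its maturation, when the embryo and the starchy endosperm filled with reserves and gained tolerance of drying under abscisic acid. On imbibition this stored RNA is turned over while new RNA is made. Gibberellin from the embryo and sugar shortage then call up hydrolases such as alpha-amylase, which feed the growing axis from endosperm starch. Rice can do this in water with little oxygen, where alcoholic fermentation supplies much of the energy.

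Levels are in FPKM, a read count corrected for transcript length and library size, for 66338 isoforms, which were summed to 55986 loci. A locus entered the comparison if either library held it at 1 FPKM or more, which kept 18814. A locus under 1 FPKM in either library was thus kept only where the other held more of it. The difference is that of log2(FPKM + 1), 24 h minus 0 h, on which the change of a low locus appears smaller than it is. A locus is called higher or lower where it is at least 2-fold apart on that scale. By this rule 19.7% of the loci kept were higher at 24 h and 17.1% were lower.

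The files give MSU locus IDs without names. Identities were therefore assigned from general knowledge of published rice nomenclature for 231 loci in 20 lists. They are used only for the 167 for which RefSeq's rice table holds a gene of that name on the chromosome stated in the ID and in the same order along it. That table does not hold the IDs themselves, so a name here is such a pairing that passed this check, not one read from the files. Of the 167 named loci, 137 reached the filter, with 44 higher at 24 h, 50 lower and 43 within 2-fold. The median difference was -0.17 over the named loci and 0.02 over all loci kept.

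The libraries differ in summed FPKM, which was 580571 at 24 h and 881252 in the dry seed. Rescaling both libraries to the same sum moved the median of the 18814 loci to 0.51 and that of the 137 named loci to 0.43. Filtered after rescaling, 19104 loci were kept, of which 32.4% were higher and 9.33% lower. The value on that scale is therefore given for each named locus whose call it ends or makes. Median-of-ratios factors instead level the libraries on the loci that both hold at 1 FPKM or more. They moved the median of the 18814 loci to 0.07. The read totals are not in the files. The commonest ratio between low isoform values was 1.09 for 24 h over 0 h, so 1 FPKM may stand for a similar number of reads in both.

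The labelled tissue was checked against defining markers. The endosperm glutelin loci GluA1 and GluA2 were at 71.1 and 14.9 FPKM at 24 h, against 116 and 35.5 FPKM in the dry seed. The embryo and aleurone marker EMP1 was at 749 FPKM at 24 h, against 9781 FPKM in dry seed. Chlorophyll-binding loci, markers of green tissue, were near the floor: CAB1R was at 1.20 FPKM at 24 h and 0.44 FPKM in the dry seed, and CAB2R was listed at 0 FPKM at 24 h and 0.05 FPKM in dry seed. In RNA from whole seeds, fewer cells of a type and less RNA per cell cannot be told apart.

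**Figure D1:**
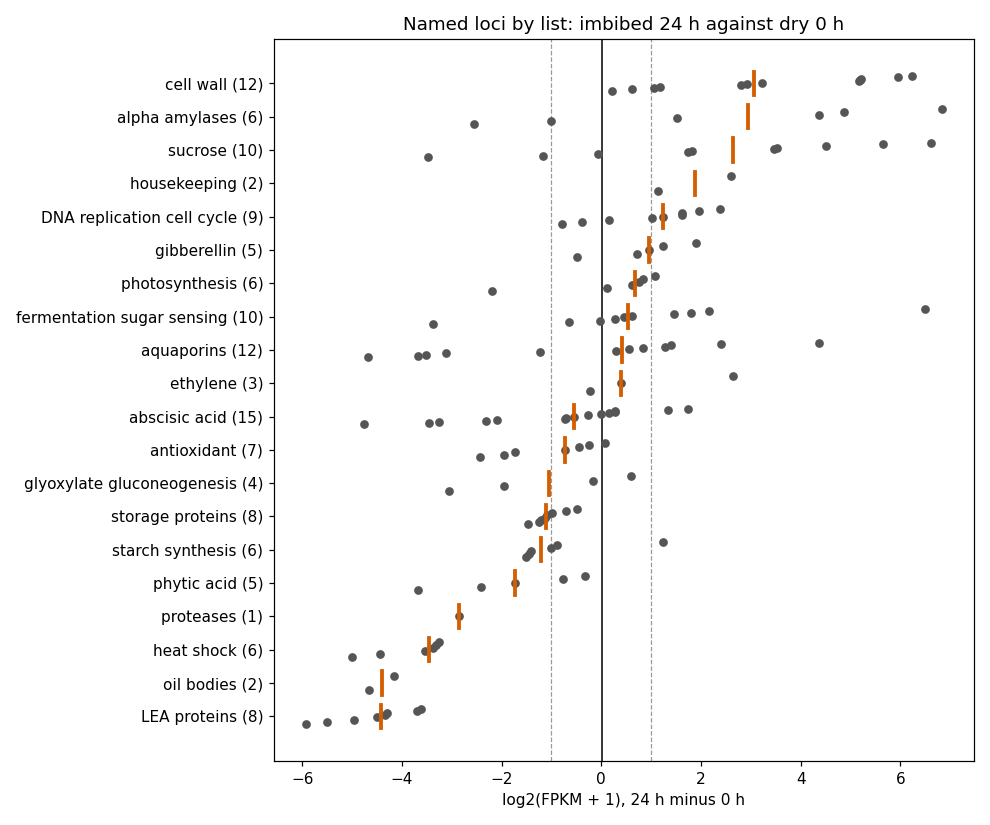
Each point is 1 named locus at 1 FPKM or more in either library, placed by its difference in log2(FPKM + 1), 24 h minus 0 h, with lists down the page and the number of loci in brackets; the thick bar is the list's median, the solid line the median of all loci kept and the dashed lines the 2-fold bounds. All LEA, oil body and heat shock points lie left of the lower bound, while most cell wall and sucrose points lie right of the upper one.

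The messages of the dry state were far lower after 24 h. All 8 named late embryogenesis abundant (LEA) loci were lower, with a median difference of -4.42. These hydrophilic proteins accumulate in drying embryos and are known for protecting cell structures without water. Together they held 0.237% of the summed FPKM at 24 h and 3.14% in the dry seed. With both libraries rescaled to the same sum all 8 stayed lower, with a median of -3.82.

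EMP1 (LOC_Os05g28210), the Em-type LEA protein, ranked 59th of all loci at 24 h and 9th in the dry seed, with a difference of -3.71. LEA3-1 (LOC_Os05g46480), a group 3 LEA protein, was at 238 FPKM at 24 h, against 5401 FPKM in dry seed, a difference of -4.50. LEA3-2 (LOC_Os03g20680) was at 87.7 FPKM at 24 h and 1090 FPKM dry, a difference of -3.62. The LEA loci thus kept a measurable level after a day in water, but none kept its dry-seed rank.

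The 4 RAB16 dehydrins, glycine-rich proteins induced by abscisic acid and drought, lie beside each other on chromosome 11. RAB16A (LOC_Os11g26790) was at 133 FPKM at 24 h, against 4192 FPKM in dry seed, a difference of -4.96. RAB16B (LOC_Os11g26780) was at 75.6 FPKM at 24 h and 3454 FPKM dry, a difference of -5.50. RAB16C (LOC_Os11g26760) was at 44.1 FPKM at 24 h and 2745 FPKM dry, a difference of -5.93, the most negative among the named loci.
RAB16D (LOC_Os11g26750), the least abundant of them, was at 13.4 FPKM at 24 h, against 281 FPKM in dry seed, a difference of -4.29. The order of the 4 loci by level was the same in both libraries. They are similar in sequence, so the division of reads among them is uncertain. DHN1 (LOC_Os02g44870), a dehydrin on chromosome 2, was at 34.01 FPKM at 24 h and 709 FPKM dry, a difference of -4.34.

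Oil bodies, the stores of seed lipid, are coated by oleosins and caleosins. OLE18 (LOC_Os03g49190), an oleosin, was at 40.8 FPKM at 24 h and 1053 FPKM in the dry seed, a difference of -4.66. EFA27 (LOC_Os04g43200), a calcium-binding caleosin, was at 9.33 FPKM at 24 h and 183 FPKM dry, a difference of -4.16. Both were as low as the LEA loci in relation to their dry-seed levels.

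Heat shock loci, whose products keep proteins from aggregating, were lower throughout: all 6 named were called, with a median of -3.46. HSP16.9A (LOC_Os01g04370), a cytosolic small heat shock protein, was at 606 FPKM at 24 h and 7065 FPKM in the dry seed, a difference of -3.54. RefSeq joins its name with that of a near-identical copy, so its reads may be shared. HSP26.7 (LOC_Os03g14180), a small heat shock protein, was at 565 FPKM at 24 h and 5405 FPKM dry, a difference of -3.26.
HSP17.4 (LOC_Os03g16030) was at 94.3 FPKM at 24 h, against 2057 FPKM in dry seed, a difference of -4.43. HSP101 (LOC_Os05g44340), the ClpB chaperone that dissolves aggregates, was at 52.6 FPKM at 24 h and 556 FPKM dry, a difference of -3.38. HSFA2a (LOC_Os03g53340), a heat shock transcription factor, showed the largest difference of the list at -4.99, with 5.29 FPKM at 24 h and 199 FPKM dry. The 6 loci held 0.237% of the summed FPKM at 24 h and 1.79% at 0 h.

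The storage protein loci that could be named, 8 of 14 listed, were already modest in the dry seed and differed less than the LEA and heat shock loci. Of 8 named storage protein loci, 5 were lower at 24 h, 0 higher and 3 within 2-fold, with a median of -1.11. RAG2 (LOC_Os07g11380), an alpha-amylase/trypsin inhibitor-like seed albumin, was at 36.6 FPKM at 24 h, against 103 FPKM in dry seed, a difference of -1.47. GluA1 (LOC_Os01g55690), the most abundant named glutelin, had a difference of -0.70, and GluA2 (LOC_Os10g26060) one of -1.20. GluA3 (LOC_Os03g31360), GluB2 (LOC_Os02g15150) and GluD (LOC_Os02g15090) were at 1.58, 2.33 and 4.20 FPKM at 24 h, against 4.47, 6.28 and 6.33 FPKM in dry seed. GluB5 (LOC_Os02g16820) was at 8.08 FPKM at 24 h and 17.0 FPKM dry, and GluB4 (LOC_Os02g16830), its neighbour, at 3.29 FPKM at 24 h and 9.20 FPKM dry. These calls depend on the scaling used: rescaled to the same sum, 0 of the 8 were lower by 2-fold and the median was -0.64. The 5 called loci were then at -0.88 for RAG2, -0.75 for GluB4, -0.63 for GluA2, -0.66 for GluB2 and -0.66 for GluA3. With median-of-ratios factors all 5 stayed lower by 2-fold, and the median was -1.06. Glutelin copies are alike, so the division of reads among them is uncertain.

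Starch synthesis loci showed the same size of difference, with 1 exception in direction. Of 6 named, out of 17 listed, 4 were lower, 1 was higher and 1 was within 2-fold. SSIIa, among the lower, passed the filter only through the dry library, so it could not be higher. SSI (LOC_Os06g06560), a soluble starch synthase, was at 35.5 FPKM at 24 h, against 103 FPKM in dry seed, a difference of -1.51. GBSSI (LOC_Os06g04200), the Waxy protein that makes amylose, was at 5.77 FPKM at 24 h and 17.1 FPKM dry, a difference of -1.42. AGPS2 (LOC_Os08g25734), a small subunit of ADP-glucose pyrophosphorylase, had a difference of -0.89, and BEI (LOC_Os06g51084), a branching enzyme, one of -1.01.
ISA1 (LOC_Os08g40930), a debranching isoamylase, was higher, at 9.10 FPKM at 24 h, against 3.28 FPKM in dry seed, a difference of 1.24. On the same-sum scale only SSIIa (LOC_Os06g12450), a soluble starch synthase at 0.71 FPKM at 24 h and 3.67 FPKM dry, stayed lower by 2-fold, at -1.09. SSI, GBSSI and BEI were then within it, at -0.92, -0.88 and -0.48.

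Phytic acid, the seed's phosphate store, is built by a short pathway whose loci parted in size. LPA1 (LOC_Os02g57400), named for the low phytic acid mutant, was at 28.0 FPKM at 24 h, against 368 FPKM in dry seed, a difference of -3.67. IPK1 (LOC_Os04g56580), the kinase of the last phosphorylation, was at 15.7 FPKM at 24 h and 88.3 FPKM dry, a difference of -2.42. MIK (LOC_Os03g52760), the myo-inositol kinase, was at 9.42 FPKM at 24 h and 33.6 FPKM dry, a difference of -1.73. RINO1 (LOC_Os03g09250), the inositol phosphate synthase that opens the pathway, was within 2-fold at 358 FPKM at 24 h and 450 FPKM dry, as was the transporter locus MRP5 (LOC_Os03g04920). All 3 called loci stayed lower on the same-sum scale. VPE1 (LOC_Os04g45470), the vacuolar enzyme that processes glutelin precursors, was at 6.62 FPKM at 24 h and 54.1 FPKM dry, a difference of -2.85.

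**Figure D2:**
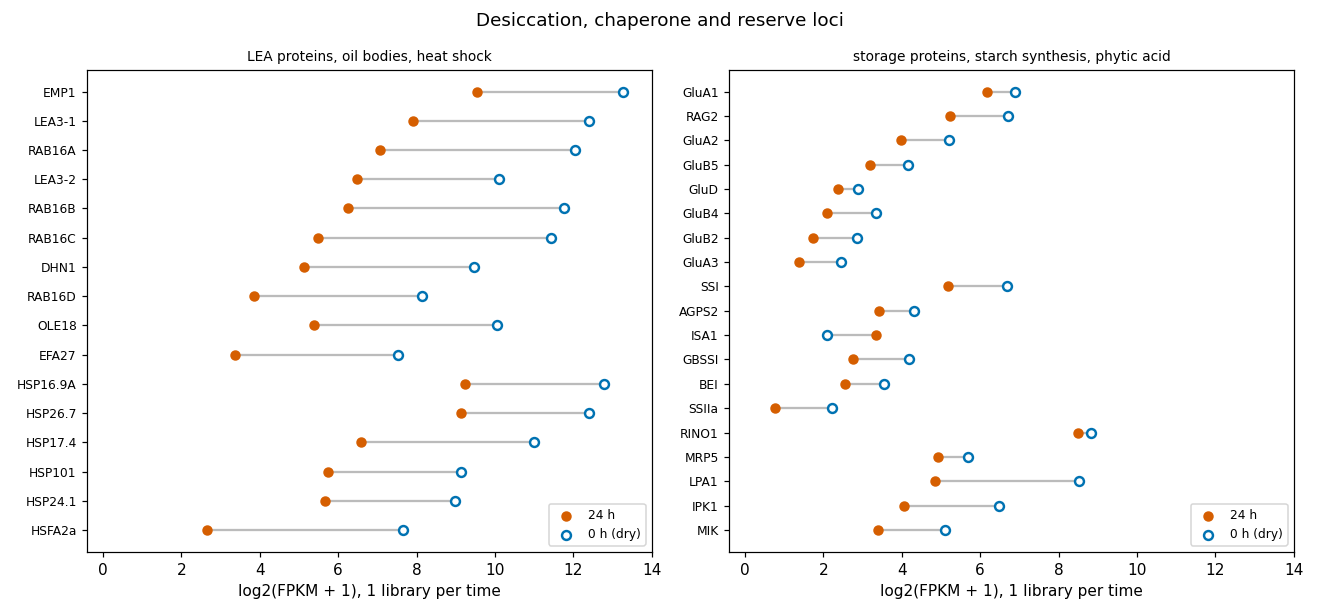
Levels of loci of the dry state and of the reserves as log2(FPKM + 1), 1 row per locus, with filled points for the 24 h library and open points for the dry library (0 h), 1 library each. In the left panel every 24 h point lies more than 3 units left of its dry point, while in the right panel most pairs lie within 2 units and ISA1 points the other way.

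Alpha-amylases, the secreted enzymes that cut starch, parted by isozyme. Of 6 named loci 4 were higher and 2 were lower at 24 h. However, RAmy1A passed the filter only through the 24 h library, so it could not be lower. The 2 lower loci, RAmy3A and RAmy2A, passed only through the dry library, so they could not be higher. RAmy3B (LOC_Os09g28420) was at 310 FPKM at 24 h and 1.74 FPKM in the dry seed, a difference of 6.83 and a 178-fold ratio of FPKM. RAmy3E (LOC_Os08g36900) was already present in the dry seed, at 297 FPKM at 24 h and 103 FPKM dry, a difference of 1.53. RAmy3D (LOC_Os08g36910), known for its induction by sugar starvation, was at 190 FPKM at 24 h and 5.53 FPKM dry, a difference of 4.87. These subfamily 3 loci therefore made up most of the named amylase RNA at 24 h.

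RAmy1A (LOC_Os02g52710), the isozyme known for its response to gibberellin, was at 21.5 FPKM at 24 h and 0.09 FPKM in the dry seed, a difference of 4.36. In the germinated seed at 48 h it was at 210 FPKM. RAmy3A (LOC_Os09g28400), the neighbour of RAmy3B, went the other way, at 0.47 FPKM at 24 h, against 7.65 FPKM in dry seed, a difference of -2.56. RAmy2A (LOC_Os06g49970) was at 0.52 FPKM at 24 h and 2.06 FPKM dry, a difference of -1.01 that became -0.71 on the same-sum scale. Reads of such near copies may have been divided with error.

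Sucrose loci were mostly higher. Of 10 named loci at the filter, 7 were higher, 2 were lower and 1 was within 2-fold. CIN1 passed the filter only through the 24 h library, so it could not be lower. Sucrose synthase splits sucrose with UDP and is the usual route of sucrose use under low oxygen. SUS1 (LOC_Os03g28330) was at 317 FPKM at 24 h, against 5.35 FPKM in dry seed, a difference of 5.65. SUS2 (LOC_Os06g09450) was at 302 FPKM at 24 h and 2.11 FPKM dry, a difference of 6.61. SUS3 (LOC_Os07g42490) was at 146 FPKM at 24 h and 5.50 FPKM dry, a difference of 4.50.

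SUS4 (LOC_Os03g22120) was the sucrose synthase of the dry seed, at 24.7 FPKM at 24 h, against 287 FPKM in dry seed, a difference of -3.49. Thus SUS4 ranked 3200th at 24 h and 350th in the dry seed, while SUS1 ranked 163rd at 24 h and 9263rd in the dry seed. Among transporters, the proton-coupled sucrose carrier SUT1 (LOC_Os03g07480) was at 129 FPKM at 24 h, against 35.7 FPKM in dry seed, a difference of 1.82. The sugar exporter SWEET4 (LOC_Os02g19820) was at 245 FPKM at 24 h and 72.2 FPKM dry, a difference of 1.75, and SWEET15 (LOC_Os02g30910) at 134 FPKM at 24 h and 11.3 FPKM dry, a difference of 3.46. CIN1 (LOC_Os02g33110), a cell wall invertase, was at 14.4 FPKM at 24 h and 0.34 FPKM dry, a difference of 3.52. SUT4 (LOC_Os02g58080), with a difference of -1.17, was within 2-fold on the same-sum scale at -0.64, and SUT2 (LOC_Os12g44380) was level at 22.9 FPKM at 24 h, against 23.9 FPKM in dry seed. SUS6, CIN2, SWEET11, SWEET13 and SWEET14 stayed under 1 FPKM in both libraries.

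Alcoholic fermentation turns pyruvate into ethanol by pyruvate decarboxylase and alcohol dehydrogenase. PDC2 (LOC_Os03g18220) was the more abundant decarboxylase in both libraries, at 915 FPKM at 24 h and 334 FPKM in the dry seed, a difference of 1.45. PDC1 (LOC_Os05g39310) had the larger difference, 6.49, with 600 FPKM at 24 h, against 5.69 FPKM in dry seed. PDC3 (LOC_Os07g49250) was at 0.12 FPKM at 24 h and 0.05 FPKM dry, under the filter. The decarboxylase step thus had more RNA at 24 h from both loci that reached the filter.
ADH1 (LOC_Os11g10480), the main alcohol dehydrogenase, was nearly level at 391 FPKM at 24 h, against 395 FPKM in dry seed, a difference of -0.02, and 0.58 on the same-sum scale. ADH2 (LOC_Os11g10510), its neighbour, was at 54.2 FPKM at 24 h and 11.3 FPKM dry, a difference of 2.17. At 48 h PDC1 and PDC2 were at 118 and 297 FPKM, below their 24 h levels.

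Of 6 signalling loci of sugar starvation, 1 was higher at 24 h, 1 was lower and 4 were within 2-fold. These shares are near the 19.7% higher and 17.1% lower over all loci kept. With both libraries rescaled to the same sum, 3 were higher and 1 lower, beside 32.4% and 9.33% of all loci. SnRK1A (LOC_Os05g45420), the energy-sensing kinase, was at 40.6 FPKM at 24 h, against 26.2 FPKM in dry seed, a difference of 0.61. CIPK15 (LOC_Os11g02240), the kinase known to link low oxygen to SnRK1A, was at 1.78 FPKM at 24 h and 1.30 FPKM dry. MYBS1 (LOC_Os01g34060), an activator of amylase promoters, was higher, at 3.78 FPKM at 24 h and 0.37 FPKM dry, a difference of 1.80. It passed the filter only through the 24 h library, so it could not be lower. With a pseudocount of 5 FPKM it was within 2-fold, at 0.71. MYBS2 (LOC_Os10g41260), of the same MYB group, had a difference of 0.45, or 1.01 on the same-sum scale, where SnRK1A reached 1.20. MYBS3 (LOC_Os10g41200), a repressor of them, was at 37.5 FPKM at 24 h and 59.2 FPKM dry, a difference of -0.64. TPP7 (LOC_Os09g20390), a trehalose-6-phosphate phosphatase known from germination under water, was lower, at 1.59 FPKM at 24 h, against 26.1 FPKM in dry seed, a difference of -3.39.

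Of the loci for making sugar from lipid and amino acids, neither glyoxylate cycle enzyme was called. ICL (LOC_Os07g34520), isocitrate lyase, was at 83.4 FPKM at 24 h, against 54.6 FPKM in dry seed, a difference of 0.60 that became 1.20 on the same-sum scale. MS (LOC_Os04g40990), malate synthase, was at 58.7 FPKM at 24 h and 66.0 FPKM dry, a difference of -0.17. PPDKB (LOC_Os05g33570), pyruvate orthophosphate dikinase, was lower at 2.75 FPKM at 24 h and 30.2 FPKM dry, a difference of -3.06. The cytosolic fructose bisphosphatase locus cFBP (LOC_Os01g64660) was at 0.48 FPKM at 24 h and 4.71 FPKM dry, a difference of -1.95.

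**Figure D3:**
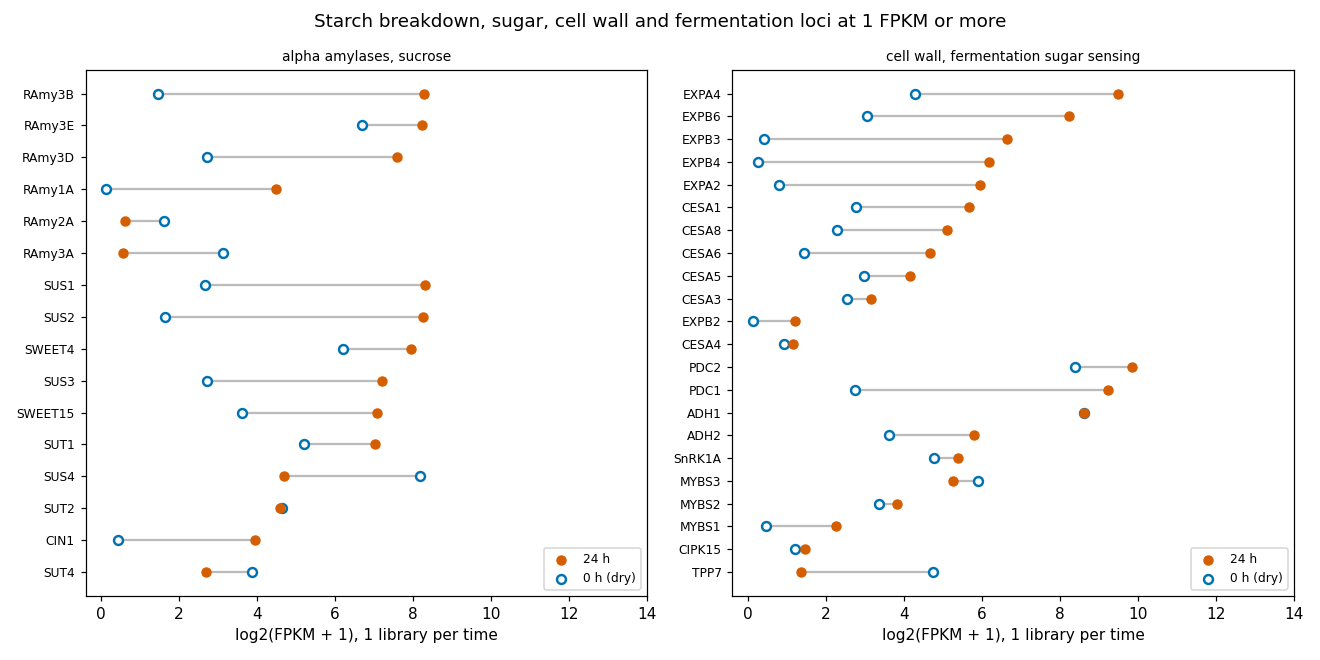
Levels as log2(FPKM + 1) of starch breakdown, sucrose, cell wall and fermentation loci at 1 FPKM or more in either library, with filled points for the 24 h library and open points for the dry library (0 h), 1 library each. Most filled points lie right of the open ones; SUS4, RAmy3A and TPP7 are the widest of those that lie the other way, and the ADH1 points overlap.

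Cell wall loci were mostly higher, with a median of 3.07. Of 12 named loci at the filter 10 were higher and 0 lower. However, EXPA2, EXPB2, EXPB3, EXPB4 and CESA4 passed the filter only through the 24 h library, so they could not be lower. Expansins loosen walls so that cells can enlarge. EXPA4 (LOC_Os05g39990), an alpha-expansin, ranked 60th at 24 h with 719 FPKM and 4293rd in the dry seed with 18.4 FPKM, a difference of 5.22. EXPA2 (LOC_Os01g60770), another alpha-expansin, was at 61.0 FPKM at 24 h and 0.73 FPKM dry, a difference of 5.16.

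The beta-expansin loci EXPB6, EXPB2, EXPB3 and EXPB4 follow each other on chromosome 10 and were all higher, but only EXPB6 reached the filter in both libraries. EXPB6 (LOC_Os10g40700) was at 302 FPKM at 24 h, against 7.25 FPKM in dry seed, a difference of 5.20. EXPB3 (LOC_Os10g40720) was at 98.4 FPKM at 24 h and 0.33 FPKM dry, a difference of 6.22, and EXPB4 (LOC_Os10g40730) at 72.3 FPKM at 24 h and 0.19 FPKM dry, a difference of 5.95. EXPB2 (LOC_Os10g40710), between EXPB6 and EXPB3, reached only 1.30 FPKM at 24 h, against 0.10 FPKM at 0 h.

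Cellulose synthases build the fibrils of primary or secondary walls. Of the primary wall group, CESA1 (LOC_Os05g08370) was at 50.1 FPKM at 24 h, against 5.77 FPKM in dry seed, a difference of 2.92. CESA8 (LOC_Os07g10770) was at 33.4 FPKM at 24 h and 3.91 FPKM dry, a difference of 2.81, and CESA6 (LOC_Os07g14850) at 24.3 FPKM at 24 h and 1.71 FPKM dry, a difference of 3.22. CESA3 (LOC_Os07g24190) and CESA5 (LOC_Os03g62090) had differences of 0.63 and 1.18, the first of which was 1.14 on the same-sum scale. The secondary wall loci were close to the floor: CESA4 (LOC_Os01g54620) was at 1.21 FPKM at 24 h, against 0.91 FPKM in dry seed, and CESA7 and CESA9 were under 0.1 FPKM in both libraries. The alpha-expansin EXPA8 was also under the filter.

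Water channel loci differed in both directions. Aquaporins pass water through the plasma membrane (PIP) or the vacuole membrane (TIP). Of 12 named loci at the filter 4 were higher, all PIPs, and 5 were lower, 4 of them TIPs. Over all loci kept 19.7% were higher and 17.1% lower. PIP2-4 and PIP2-5 passed the filter only through the 24 h library, so they could not be lower. TIP1-1 (LOC_Os03g05290) was at 97.7 FPKM at 24 h and 1259 FPKM in the dry seed, a difference of -3.67. TIP1-2 (LOC_Os01g74450) was at 29.8 FPKM at 24 h and 789 FPKM dry, a difference of -4.68. TIP3-2 (LOC_Os04g44570), of the seed type, was at 2.29 FPKM at 24 h and 36.5 FPKM dry, a difference of -3.51.

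PIP1-2 (LOC_Os04g47220) was the lower plasma membrane channel, at 34.5 FPKM at 24 h, against 305 FPKM in dry seed, a difference of -3.11. PIP1-1 (LOC_Os02g44630) and PIP2-1 (LOC_Os07g26690) were abundant in both libraries and within 2-fold, at 409 and 210 FPKM at 24 h and 278 and 172 FPKM at 0 h. PIP2-4 (LOC_Os07g26630) had the largest positive difference, 4.36, at 21.5 FPKM at 24 h and 0.10 FPKM dry. PIP1-3 (LOC_Os02g57720) was at 13.2 FPKM at 24 h and 1.67 FPKM dry, a difference of 2.41. PIP2-6 (LOC_Os04g16450) was at 5.76 FPKM at 24 h and 1.55 FPKM dry, and PIP2-5 (LOC_Os07g26660) at 1.43 FPKM at 24 h while listed at 0 in dry seed. With a pseudocount of 5 FPKM both were within 2-fold, at 0.72 for PIP2-6 and 0.36 for PIP2-5. On the same-sum scale PIP1-1 and TIP2-2 (LOC_Os06g22960) also passed 2-fold higher, at 1.15 and 1.43, so the higher loci were then not all PIPs, and TIP4-1 (LOC_Os05g14240) was no longer lower by 2-fold, with -0.73 against the -1.23 reported. PIP2-2, PIP2-3, PIP2-7, PIP2-8 and TIP2-1 were under 1 FPKM in both libraries.

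Enzymes against active oxygen were lower or level. Of 7 named loci 3 were lower and 0 higher. The copper/zinc superoxide dismutases SODCC1 (LOC_Os03g22810) and SODCC2 (LOC_Os07g46990) were at 24.0 and 79.5 FPKM at 24 h, against 134 and 310 FPKM in the dry seed, with differences of -2.44 and -1.95. CATA (LOC_Os02g02400), a catalase, was at 7.28 FPKM at 24 h and 26.5 FPKM dry, a difference of -1.73. The manganese dismutase MSD1 (LOC_Os05g25850), the catalase CATB and the cytosolic ascorbate peroxidases APX1 and APX2 stayed within 2-fold. APX1 (LOC_Os03g17690) was at 206 FPKM at 24 h, against 245 FPKM in dry seed.

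Abscisic acid loci differed in both directions, and also among loci of like role. Of 15 named, 2 were higher, 5 lower and 8 within 2-fold. Over all loci kept 19.7% were higher and 17.1% lower, and 32.4% and 9.33% on the same-sum scale. PP2C30, among the lower, passed the filter only through the dry library, so it could not be higher. NCED3 (LOC_Os03g44380), a 9-cis-epoxycarotenoid dioxygenase of the rate-limiting step of synthesis, was at 1.53 FPKM at 24 h, against 67.5 FPKM in dry seed, a difference of -4.76. The hydroxylases that break the hormone down differed in direction. ABA8ox1 (LOC_Os02g47470) was higher at 85.1 FPKM at 24 h and 25.0 FPKM dry, a difference of 1.73, and ABA8ox2 (LOC_Os08g36860) lower at 4.05 FPKM at 24 h and 20.6 FPKM dry, a difference of -2.09. ABA8ox3 (LOC_Os09g28390) was at 1.24 FPKM at 24 h and 0.86 FPKM dry.

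In the response chain, SAPK9 (LOC_Os12g39630), an abscisic acid-activated kinase, was at 1.12 FPKM at 24 h, against 19.3 FPKM in dry seed, a difference of -3.26. Its relatives SAPK2, SAPK8 and SAPK10 were within 2-fold, between 26.3 and 34.3 FPKM at 24 h and between 23.8 and 50.3 FPKM at 0 h. PP2C30 (LOC_Os03g16170), a phosphatase that holds such kinases off, was at 0.68 FPKM at 24 h and 17.5 FPKM dry, a difference of -3.46. The phosphatases PP2C06, PP2C51 and PP2C53 were within 2-fold. The transcription factor bZIP23 (LOC_Os02g52780) was at 3.90 FPKM at 24 h and 23.2 FPKM dry, a difference of -2.31, whereas TRAB1 (LOC_Os08g36790), of the same family, was level with -0.27.
VP1 (LOC_Os01g68370), the seed maturation regulator that acts with abscisic acid, was higher at 24 h, at 53.9 FPKM against 20.7 FPKM in the dry seed, a difference of 1.34. At 48 h it was at 10.2 FPKM, below both. All 7 called loci of this list were also called, in the same direction, on the same-sum scale. The median of the list was -0.54, and 0.05 on that scale.

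Gibberellin synthesis loci were low. KAO (LOC_Os06g02019), of the ent-kaurenoic acid step, was at 1.24 FPKM at 24 h, against 0.16 FPKM in dry seed, and KO2 (LOC_Os06g37364), of the step before it, at 3.23 FPKM at 24 h and 1.58 FPKM dry. On the same-sum scale both passed 2-fold higher, at 1.18 and 1.13. CPS1, KS1, GA20ox2, GA20ox3 and the inactivating EUI1 stayed under 1 FPKM in both libraries. The response loci were more abundant. GID1 (LOC_Os05g33730), the receptor, was at 81.8 FPKM at 24 h and 115 FPKM dry, a difference of -0.49. SLR1 (LOC_Os03g49990), the DELLA repressor, was higher at 47.4 FPKM at 24 h and 11.9 FPKM dry, a difference of 1.90. GAMYB (LOC_Os01g59660), an activator of amylase promoters that acts downstream of it, was at 30.4 FPKM at 24 h and 12.4 FPKM dry, a difference of 1.23.

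Ethylene loci were few. The receptor ETR2 (LOC_Os04g08740) was higher at 11.1 FPKM at 24 h, against 0.93 FPKM in dry seed, a difference of 2.65. The receptor ERS1 (LOC_Os03g49500) and the signalling protein EIN2 (LOC_Os07g06130) were within 2-fold. The synthesis loci ACS1, ACS2 and ACO1 were under 1 FPKM in both libraries.

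**Figure D4:**
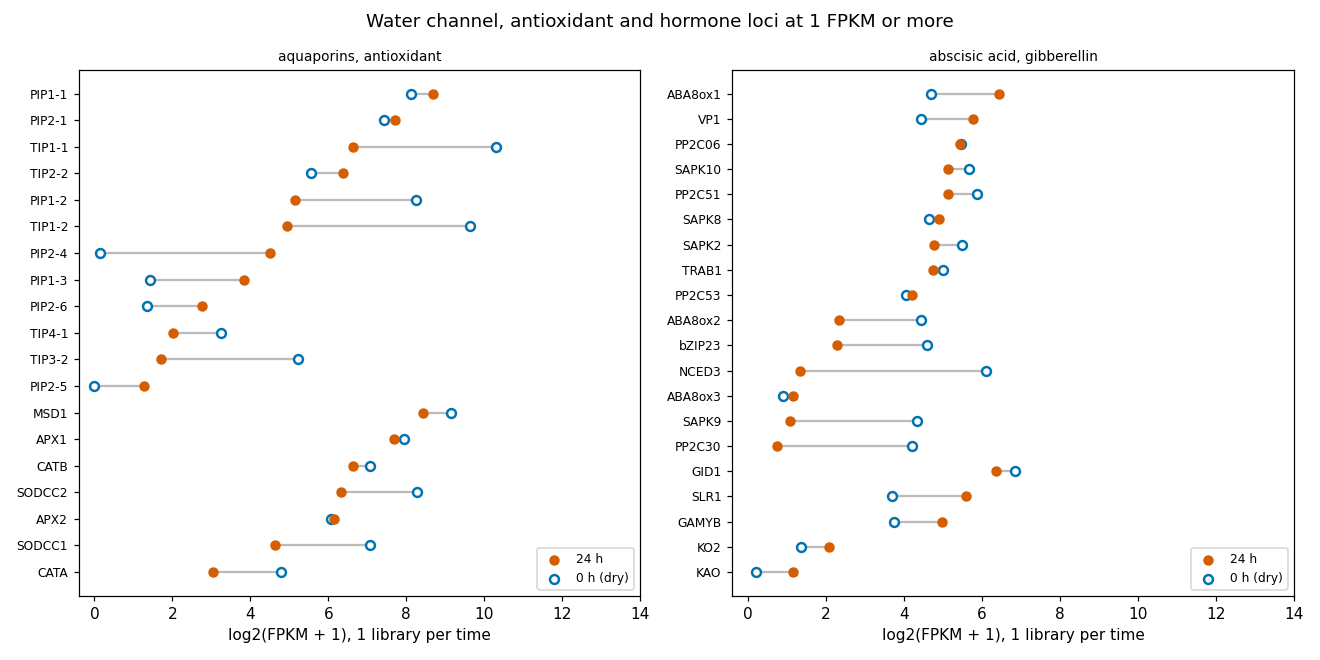
Levels as log2(FPKM + 1) of aquaporin, antioxidant, abscisic acid and gibberellin loci at 1 FPKM or more in either library, with filled points for the 24 h library and open points for the dry library (0 h), 1 library each. TIP1-1, TIP1-2 and PIP1-2 lie far left of their dry points and PIP2-4 far right, and NCED3 shows the widest gap of the hormone loci.

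DNA replication and division loci were mostly low at 24 h. Of 9 named loci at the filter 6 were higher and 0 lower, while 6 others stayed under it. Among those higher, MCM2, MCM5 and CDKA2 passed the filter only through the 24 h library, so they could only be higher. With a pseudocount of 5 FPKM they were within 2-fold, at 0.27, 0.37 and 0.61. PCNA (LOC_Os02g56130), the sliding clamp of DNA polymerase, was at 34.3 FPKM at 24 h, against 8.11 FPKM in dry seed, a difference of 1.96. CDKA1 (LOC_Os03g02680), the kinase active through the cycle, was at 40.1 FPKM at 24 h and 12.3 FPKM dry, a difference of 1.62. KRP1 (LOC_Os02g52480), an inhibitor of such kinases, had the largest difference of the list, 2.37, with 30.04 FPKM at 24 h, against 5 FPKM in dry seed. Enzyme and inhibitor were thus both higher.

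The 6 named subunits of the MCM helicase, which opens DNA for replication, lay between 0.32 and 1.54 FPKM at 24 h and between 0.02 and 0.37 FPKM in the dry seed. At 48 h they lay between 5.74 and 11.9 FPKM. The mitotic cyclins CYCB2-1 (LOC_Os04g47580) and CYCB2-2 (LOC_Os06g51110) were at 0.11 and 0.08 FPKM at 24 h, against 0.10 and 0.16 FPKM at 0 h, and at 6.88 and 13.99 FPKM at 48 h. The mitotic kinases CDKB1 and CDKB2 were within 2-fold between 24 h and 0 h. The mitotic cyclin loci were thus below 1 FPKM at 0 and 24 h and above it at 48 h.

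Photosynthesis loci were low at 24 h except CAO1. CAO1 (LOC_Os10g41780), the chlorophyllide a oxygenase of chlorophyll b synthesis, was within 2-fold at 24.4 FPKM at 24 h and 22.6 FPKM in the dry seed, and at 11.2 FPKM at 48 h. Of 6 named loci at the filter 1 was higher and 1 lower, near the 19.7% and 17.1% over all loci kept, and CAB2R and PORA stayed under it. CHLI (LOC_Os03g36540), a subunit of the magnesium chelatase of chlorophyll synthesis, was higher at 2.05 FPKM at 24 h, against 0.45 FPKM in dry seed, a difference of 1.07. With a pseudocount of 5 FPKM it was within 2-fold, at 0.37. CHLI, CHLD, CHLH and CAB1R passed the filter only through the 24 h library, so they could not be lower. PORB (LOC_Os10g35370), a protochlorophyllide reductase, was lower at 1.25 FPKM at 24 h and 9.22 FPKM dry, a difference of -2.18. CAB1R (LOC_Os09g17740), of the light-harvesting complex, was at 1.20 FPKM at 24 h and 0.44 FPKM dry, and reached 69.2 FPKM at 48 h. Its difference between 24 h and 0 h was within 2-fold only on the log2(FPKM + 1) scale. With a pseudocount of 0.1 FPKM it was 1.27. On the same-sum scale CHLD and CHLH also passed 2-fold higher, at 1.09 and 1.16.

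**Figure D5:**
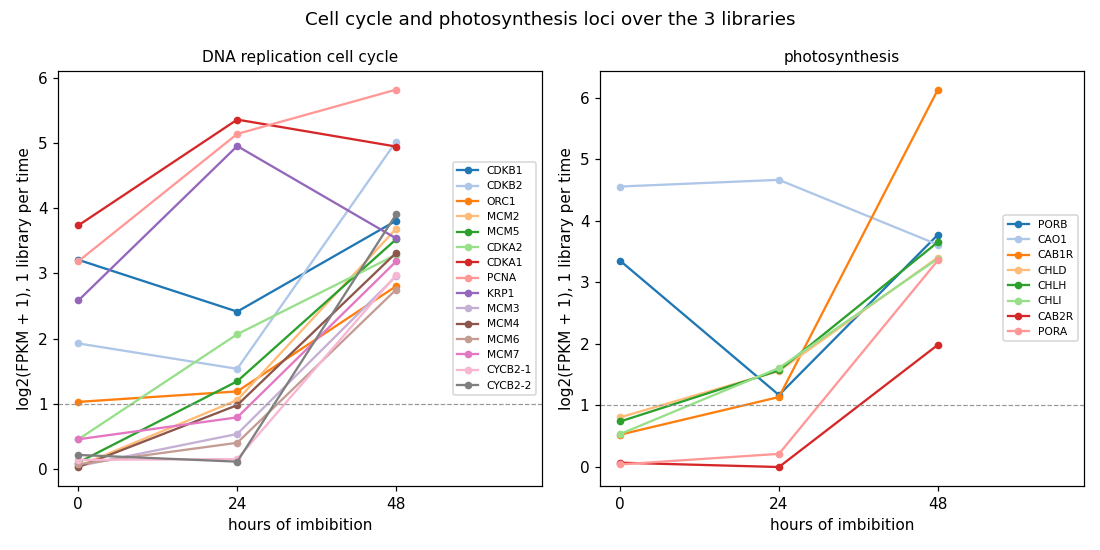
Levels as log2(FPKM + 1) of DNA replication and cell cycle loci (left) and photosynthesis loci (right) at 0, 24 and 48 h of imbibition, 1 library per time; the dashed line marks 1 FPKM. The MCM, CYCB2 and CAB1R lines stay near or below the dashed line until 24 h and lie above it at 48 h, while KRP1 and CDKA1 are highest at 24 h.

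Loci often used as level references were not level. EEF1A (LOC_Os03g08010), translation elongation factor 1-alpha, was at 1444 FPKM at 24 h and 653 FPKM in the dry seed, a difference of 1.14. ACT1 (LOC_Os03g50885), an actin, was at 302 FPKM at 24 h and 48.7 FPKM dry, a difference of 2.61. Both were further apart on the same-sum scale, at 1.75 and 3.20.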

How the data were processed

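Poly(A)-enriched RNA of rice seeds at 0, 24 and 48 h was sequenced with 1 library per time, each from 3 combined replicates per the series' design text. The authors deposited FPKM values per isoform, to 2 decimals; the submitters' processing notes name RSEM 1.1.11, edgeR 2.3.52 and FastQC, with no roles. Which aligner, genome build and scaling were used is not given in the sources used here. Isoforms were summed per locus, loci at 1 FPKM or more in either library were kept, and differences were taken on log2(FPKM + 1) and called at 2-fold, with no test.

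Members and lists were chosen with earlier results of these data known. Of 231 listed loci, 167 passed the check against RefSeq's table (assembly ASM3414082v1). Of the others, 54 had no entry of that name, 4 had several, 3 lay on another chromosome and 3 out of order; these are not reported. The order check kept, on each chromosome, the longest run of pairs in the same order and, among inner pairs, those within 2 Mb of the place their neighbours gave. It replaced, after its output was seen, a first form that had left out nearly all loci of chromosome 5 because of a single wrong pair. Other names of 16 loci in that table were looked up after the table was seen. Named in the text were the 4 most abundant loci of a list and the 2 largest differences in each direction, at 10 FPKM or more (1 FPKM for regulators); further members were added after their values were seen. Alternatives were pseudocounts of 0.1 and 5 FPKM, a filter of 5 FPKM or none, a 4-fold call, the same sum and median-of-ratios factors. The comparison was run on simulated data with 4-fold changes put into loci at 10 FPKM or more and little noise. These held no counting error or scale difference, so they cannot show how it handles low loci or scaling. The software was pandas 2.3.3 and numpy 2.4.6 under Python 3.11.15, with figures drawn by matplotlib 3.10.9. Read totals are unknown, so no counting error is given.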

Additional observations from a re-analysis of the deposited data

How the results depend on the processing

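No paired analysis was possible because both times have a single pooled library. Leaving out replicates was not possible for the same reason. Of the named loci, 44 were higher and 50 lower as reported, 55 and 39 with both libraries rescaled to the same sum and filtered after that, 34 and 41 with a pseudocount of 5 FPKM, and 23 and 34 at 4-fold. Over all loci, 3700 were higher and 3209 lower as reported, 6195 and 1782 rescaled to the same sum, 1696 and 1759 with a pseudocount of 5 FPKM, and 1204 and 947 at 4-fold. No named locus called as reported changed sign under the 7 alternatives, but none could have. A pseudocount, filter or fold cutoff leaves the sign as it is. The same-sum shift is at most 0.60 and that of median-of-ratios factors is smaller, both short of 2-fold. Of named loci within 2-fold, 13 changed sign on the same-sum scale and 2 with median-of-ratios factors. Among medians of lists with 3 or more loci, that of abscisic acid was -0.54 as reported and 0.05 on the same-sum scale, and that of aquaporins 0.42 and, with no filter, 0. On the same-sum scale 11 named loci were no longer called and 10 were newly called, and MCM4 passed the filter and was higher; by construction it shifts every locus towards higher. Median-of-ratios factors ended 2 calls and made none. The cell wall median was 3.07 and that of alpha-amylases 2.95 as reported, but 4.19 and 4.36 with the filter of 5 FPKM, and 2.81 and 2.95 with none. With no filter 2 list medians came within 2-fold and 15 kept their call. The sucrose median was then 0.67 against 2.64 as reported, and that of DNA replication 0.49 against 1.25. That of gibberellin, within 2-fold as reported at 0.95, was then 0.03. A pseudocount of 5 FPKM ended 19 calls of named loci, and one of 0.1 FPKM added 5. The filter of 5 FPKM kept 116 named loci, whose calls a filter cannot alter. Low loci carry the most counting error, which cannot be given without read totals.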
